A study of Mus musculus with 24 samples.

Results

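The smooth-muscle miRNAs miR-143 and miR-145 (mmu-miR-143 and mmu-miR-145 on the panel) are 2 of the 599 miRNA probes (566 mouse and 33 viral) of an nCounter panel that was run on 24 samples of a mouse mammary tumor model. They were taken by name from the panel, all samples were used, and each is read by a single probe. The tumors grew from JygMC(A) GFP/Luc cells, a mammary carcinoma line that had arisen in a Chinese wild mouse, injected into the mammary fat pads of young female Balb/C nude mice, which lack mature T cells. Laser capture gave carcinoma areas (n = 5) and spindle-shaped, EMT-like areas (n = 7) of the primary tumors (PT), lung metastases (n = 4), normal mammary gland (NMG, n = 2) and normal lung (n = 2) of the same nude strain. The same line was grown as monolayer (n = 2) and as third-generation 3D-spheres on plates to which cells do not attach (n = 2). No drug treatment is named for any of these samples. All tumors therefore come from 1 line, and the tumor cells differ in genetic origin from the normal tissues they are set against. Replicate 1 of the carcinoma, EMT-like and lung metastasis groups carries the labels of 3 animals, the 16 tumor samples carry 8 animal labels in all, and the normal tissues come from 2 animals that each gave lung and NMG.

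A miRNA is a short RNA that guides the silencing complex to messenger RNAs, mainly by pairing through its seed. miR-143 and miR-145 are cut from neighbouring hairpins and are known as the most characteristic miRNAs of vascular and visceral smooth muscle, where they hold the contractile state by restraining factors such as Klf4 and Elk1. Myoepithelial cells of the mammary gland and pericytes share that contractile program. Both miRNAs are often low in carcinomas, and how far this follows from the amount of smooth muscle and stroma in a sample has long been debated.

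The miRNAs whose pattern over the 24 samples was most like each member are shown by sequence, since their seeds tell which of them belong together. All 10 were matched in RefSeq (GRCm38.p6), with a panel name that gives no arm read as its main strand. Capitals mark the seed, bases 2 to 8, and each sequence runs 5′ to 3′.
miR-15a: uAGCAGCAcauaaugguuugug
miR-16: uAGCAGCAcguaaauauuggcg
miR-130a: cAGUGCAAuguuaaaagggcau
miR-450a-5p: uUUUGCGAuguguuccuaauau
miR-26b: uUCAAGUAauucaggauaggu
miR-29c: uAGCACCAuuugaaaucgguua
miR-365: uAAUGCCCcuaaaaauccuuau
miR-188-5p: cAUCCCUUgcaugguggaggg
miR-322: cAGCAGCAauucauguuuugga
miR-22: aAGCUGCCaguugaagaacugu
The first 5 were nearest to miR-143 and the last 5 to miR-145. The 10 carry 8 different seeds, and miR-15a, miR-16 and miR-322 share one.

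Depth differed between groups, with a sum of mouse miRNA values of 62583 to 184501 in tumor lanes, 525697 to 2335740 in normal tissue and 26420 to 46507 in culture, so the levels below are values scaled between lanes. The first monolayer lane stood apart from the other 3 culture lanes, with correlations of 0.728 to 0.761 over 196 probes where those 3 had 0.841 to 0.946 among themselves. The normal tissues carry a label series of their own, so the series and the kind of tissue cannot be told apart.

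Both members were most abundant in normal tissue. miR-143 measured 3234 and 2916 in the 2 normal lungs and 1329 and 2355 in the 2 NMG samples. It was 68.8, 91.9, 96.9, 122 and 244 in the 5 carcinoma areas. Every tumor sample lay below every normal sample, and no share of probes was counted for that wider split. In narrower pairs, 38.8% of the 583 probes did not overlap between carcinoma areas and NMG, 34.6% between EMT-like areas and NMG and 48.5% between metastases and normal lung. In the 7 EMT-like areas the lowest value was 73.3, the median 125 and the highest 221. The 4 lung metastases measured 103, 117, 141 and 143. The 3 kinds of tumor area thus overlapped one another, and of these the metastases had the narrowest spread.

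miR-145 was likewise highest in normal lung, with NMG second. It measured 10720 and 7017 in normal lung and 4698 and 5237 in NMG. In the carcinoma areas it was 673, 729, 778, 951 and 1445. No tumor sample reached the lower NMG value. Of all probes, 38.8% did not overlap between carcinoma areas and NMG and 34.6% between EMT-like areas and NMG. That share was not counted for metastases against NMG. The EMT-like areas had a lowest value of 678, a median of 984 and a highest value of 1204. The lung metastases measured 585, 623, 836 and 946. The metastases reached lower than the primary tumors but overlapped both kinds of primary area.

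**Figure D1:**
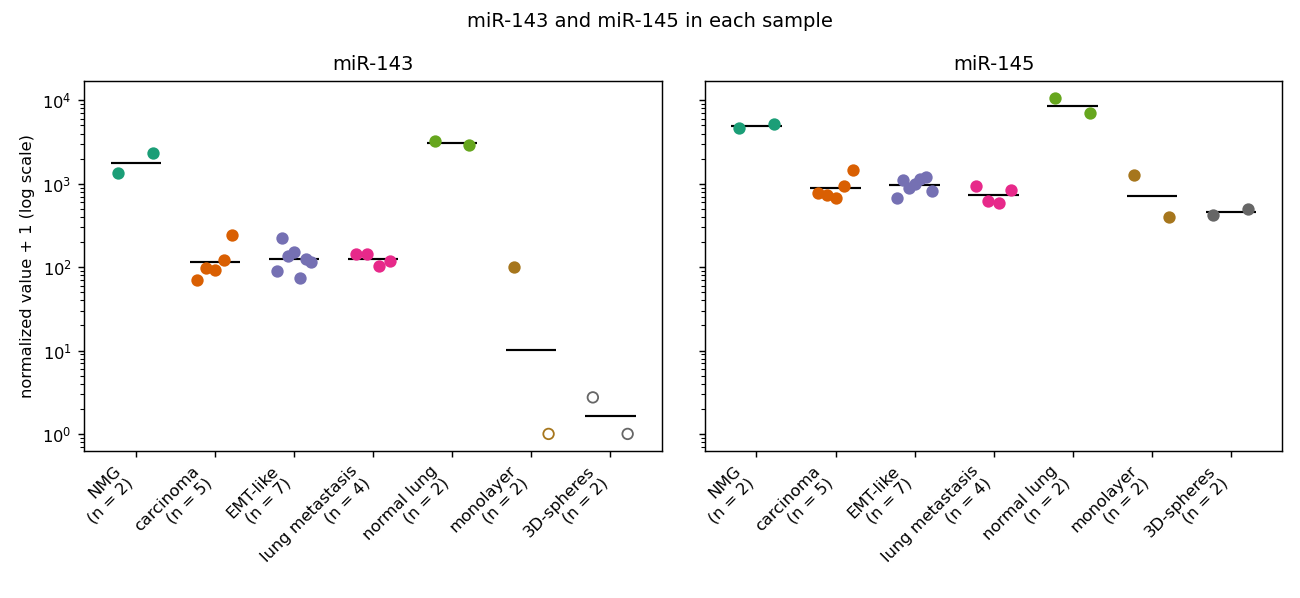
Normalized value plus 1 (log scale) of miR-143 and miR-145 in each sample by group. Filled points are above the lane's detection limit, open points are not, and lines are means on the log2 scale. The normal tissues lie above all 16 tumor samples for both members, and miR-143 is above the limit in 1 of the 4 cultures. In the narrower pairs, primary areas against NMG and metastases against normal lung, 34.6% to 48.5% of all probes do not overlap.

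In order of mean level, normal lung stood first for both members (3075 ± 225 SD for miR-143 and 8869 ± 2619 for miR-145, n = 2) and NMG second (1842 ± 725 and 4968 ± 381, n = 2). These 2 groups did not overlap each other, nor did they for 49.9% of all probes, and their difference did not pass the test given below. For miR-143 the EMT-like areas (130 ± 48.6, n = 7), the metastases (126 ± 19.6, n = 4) and the carcinoma areas (125 ± 69.3, n = 5) followed within their spread. For miR-145 the EMT-like areas (976 ± 193), the carcinoma areas (915 ± 314) and the metastases (747 ± 172) likewise overlapped as neighbours. Cultures came last for miR-143. For miR-145 the monolayer, with a mean of 838, fell among the tumors and the 3D-spheres, with 459, came last.

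The first question was whether the tumor areas differed from NMG, which came from other animals than the tumors. Carcinoma areas had 15.5-fold less miR-143 than NMG (log2 fold change -3.96, SE 0.97, limma adjusted p = 0.00382) and 5.64-fold less miR-145 (-2.50, SE 0.36, adjusted p = 1.87e-05). EMT-like areas had 14.3-fold less miR-143 (-3.84, SE 0.92, limma adjusted p = 0.00346) and 5.17-fold less miR-145 (-2.37, SE 0.35, adjusted p = 2.07e-05). Both members were thus called lower in both comparisons, against a background of 23.8% of the 583 probes called lower in carcinoma areas and 20.2% in EMT-like areas. These samples are bulk captures, in which fewer cells of a type and less RNA per cell cannot be told apart. Among probes above the limit in every lane compared, the fold change of miR-143 held rank 4 from the lowest of 132 in carcinoma areas and rank 4 of 149 in EMT-like areas. miR-145 held ranks 15 and 21. The 2 NMG samples differed in miR-143, and without NMG replicate 2 the miR-143 calls were lost (-3.55 with limma adjusted p = 0.0747 in carcinoma areas, and -3.42 with 0.0837 in EMT-like areas), in a fit that takes the 1 sample left to vary like the other groups. In a fit without the 4 cultures, whose miR-143 values lie far apart, the same fold changes had limma adjusted p of 5.63e-07 and 5.14e-07. The size of the fall depends on the scaling between lanes. In carcinoma areas the log2 fold change of miR-145 was -1.96 by the 100 most abundant miRNAs and -4.07 with no scaling, and that of miR-143 was -3.42 and -5.53, while the median of all probes moved from -0.25 to -1.83. In EMT-like areas the call of miR-143 was lost by the 100 most abundant miRNAs (-2.97, limma adjusted p = 0.0765).

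Markers of other cells moved beside the members, where 23.8% of all probes were called lower in carcinoma areas and 20.2% in EMT-like areas. The endothelial pair miR-126-3p and miR-126-5p, which arises from an intron of Egfl7, fell in both kinds of tumor area (2 of 2 members called), with a summed level of 10972 to 17615 in NMG and 1067 to 2626 in the primary tumors. All 3 of the adipose-linked miRNAs were lower in both kinds of area, from 1586 to 1679 summed in NMG to 119 to 285. Of the 7 blood and immune miRNAs, 6 were lower in carcinoma and in EMT-like tissue, from 11010 to 13705 summed down to 373 to 1037, while miR-142-5p was higher in carcinoma areas (log2 fold change 1.21, limma adjusted p = 0.0212). Of the 7 epithelial miRNAs, 1 was lower in carcinoma areas and 4 in EMT-like areas (median log2 fold change -3.56), among them miR-205 (-5.12 in EMT-like areas). The skeletal and heart muscle list summed to 48.6 in one NMG sample and 1030 in the other, with 3 of 6 lower in carcinoma areas and 2 of 6 in EMT-like areas. Both counts include miR-208a, above the detection limit in 1 of the 2 NMG samples. The sample with more of these muscle miRNAs was replicate 1, which had the lower miR-143 of the pair. The part of these cells in the members' difference was not tested.

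Metastases were set against normal lung, which came from other animals than the tumors. Metastases had 24.4-fold less miR-143 than normal lung (log2 fold change -4.61, SE 0.999, limma adjusted p = 0.000744) and 11.8-fold less miR-145 (-3.56, SE 0.37, adjusted p = 8.23e-08). Of all probes, 42.2% were called lower in this comparison, where the members held ranks 5 and 12 from the lowest of 120. The endothelial pair summed to 67777 to 70146 in normal lung and 819 to 3114 in the metastases, and both were called lower. Blood and immune miRNAs were lower in 6 of 7, and the other one, miR-142-5p, was higher (log2 fold change 1.53, limma adjusted p = 0.00388). Skeletal and heart muscle miRNAs were lower in 5 of 6 (median log2 fold change -2.72), adipose-linked ones in 3 of 3 and epithelial ones in 1 of 7. The 5 muscle calls include miR-499, above the detection limit in no lane of either group, and miR-206, above it in 1 of the 2 normal lungs. Across the other scalings miR-143 ran from -7.12 to -3.13 and miR-145 from -6.07 to -2.09 on the log2 scale, with both called each time, while the median of all probes ran from -2.62 to -0.16. Their part was again not tested.

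Normal lung exceeded NMG in both animals for both members. miR-143 was higher by 1.28 and 0.31 on the log2 scale within the 2 animals and miR-145 by 1.19 and 0.42. Neither passed the test (log2 fold change 0.80, limma adjusted p = 0.735, and 0.81, adjusted p = 0.263), with 95% intervals from -1.60 to 3.19 and from -0.092 to 1.70, where 11.7% of probes were called. The direction also rests on the scaling, since dividing by the miRNA total turned both values to -0.081 and -0.070. Scaling by the 4 mRNA controls gave 2.05 for miR-145, with a limma adjusted p of 0.0293. Whether the fall from normal tissue differed between lung and gland was tested as an interaction, chosen after the values were seen. It called 67 of the 583 probes. miR-145 fell by 1.14 more on the log2 scale in lung (SE 0.50), which did not pass (limma adjusted p = 0.152), and miR-143 by 0.72 more (SE 1.33, adjusted p = 0.830).

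**Figure D2:**
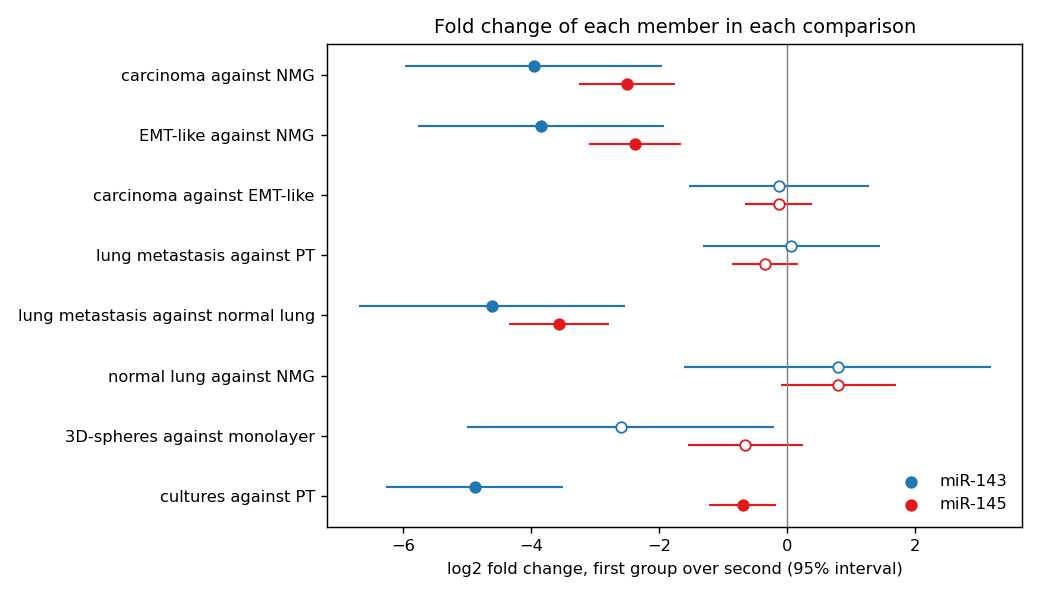
Log2 fold change (limma) of miR-143 and miR-145 in the 8 comparisons, with 95% intervals. Filled points passed an adjusted p of 0.05. The comparisons with normal tissue pass for both members, and the intervals of miR-143 are wide in this shared fit, which holds the monolayer lanes at 99.4 and 0.

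The 2 areas of the primary tumor, epithelial and spindle-shaped, were compared with each other. miR-143 did not differ by the test (log2 fold change -0.12, carcinoma over EMT-like, 95% interval -1.53 to 1.28, limma adjusted p = 1), nor did miR-145 (-0.13, interval -0.65 to 0.40, adjusted p = 0.926). Only 0.172% of probes were called here. With the animal as a block the values were -0.12 (adjusted p = 1) and -0.13 (0.926). The interval of miR-145 leaves room for a change of 1.57-fold at most in the direction of lower carcinoma. For miR-143 it leaves room for 2.88-fold, and in the fit without the cultures its SE fell from 0.68 to 0.29. Of the 7 miRNAs of the epithelial list, which holds the miR-200 family, none was called in this comparison, although their median log2 fold change was 2.79 toward carcinoma.

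Within the 4 animal labels that gave both areas, miR-143 was lower in the carcinoma area in 3 and higher in 1. The pool of 3 animals had 68.8 in carcinoma and 87.9 in EMT-like tissue, and animal GB 71 had 96.9 and 221. Animal 6516 had 122 and 136, whereas animal 6517 had 244 and 153. Animal 6517 thus gave the highest carcinoma value and went against the other 3. For miR-145 the carcinoma area was higher in 3 of the 4, and the exception was GB 71, with 729 against 1107.

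Lung metastases were set against the primary tumors as a whole. miR-143 had a log2 fold change of 0.071 (95% interval -1.31 to 1.46, limma adjusted p = 1), and miR-145 of -0.34 (interval -0.85 to 0.18, adjusted p = 0.694), in a comparison that called 3.09% of probes. With the animal as a block these were 0.070 (adjusted p = 1) and -0.34 (0.695). Neither therefore passed, and a fall of miR-145 by 1.81-fold lies at the edge of its interval. Among animals with a 4-figure label, the 3 metastases were lower in miR-145 than the 7 primary samples (log2 difference -0.63, exact permutation p = 0.025, the smallest possible being 0.00833). This is 1 of 8 such values within label series, has a Benjamini-Hochberg adjusted p of 0.2 over them, and rests on samples that share animals. The single metastasis of the other label series went the other way, at 0.28. Against the EMT-like area of the same animal, miR-145 in the metastasis was 585 against 1204 in animal 6519 and 623 against 984 in animal 6517. It was 836 against 814 in animal 6520 and 946 against 678 in the pool. The 4 pairs thus split evenly, as did those of miR-143.

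**Figure D3:**
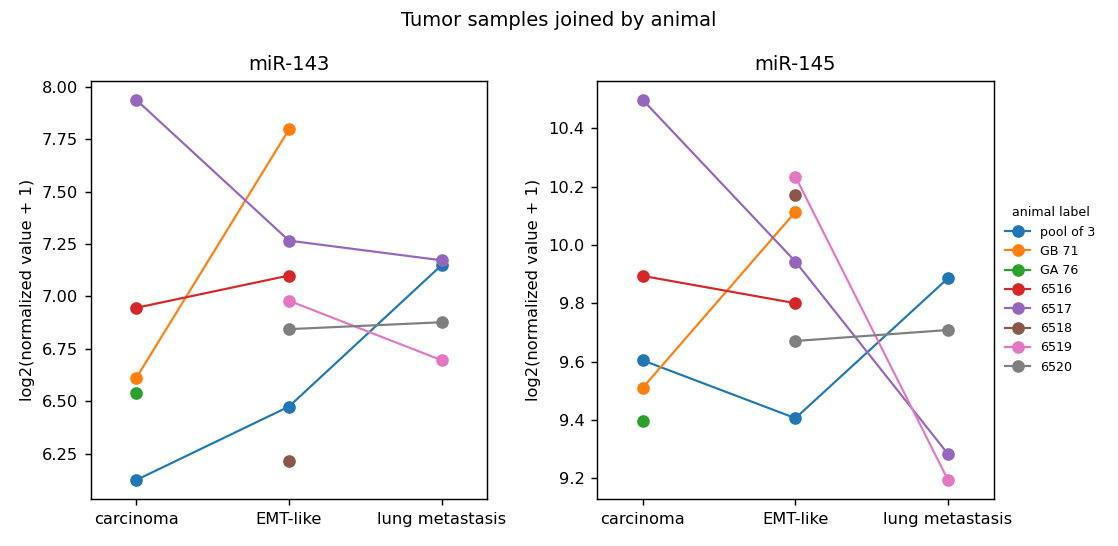
Log2(normalized value + 1) of miR-143 and miR-145 in the 16 tumor samples, with samples of 1 animal label joined by a line. Lines run in both directions for both members, from carcinoma to EMT-like area and from there to lung metastasis. The vertical axes do not start at 0.

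The list of miRNAs linked to stroma and smooth muscle has 11 of its 12 names on the panel, and its counts and medians are given beside those of all probes. In carcinoma areas 7 of the 11 were lower than in NMG and none higher, where 23.8% of all 583 probes were called lower. Their median log2 fold change was -1.85 where all probes had -0.68, and the count ran from 4 to 11 across the other scalings. Over those scalings 90 to 289 of all probes were called lower. In EMT-like areas 5 of 11 were lower, where 20.2% of all probes were (median -1.87 against -0.30, and 3 to 10 across scalings). Of all probes, 77 to 201 were called lower there across scalings. Against normal lung, 9 of 11 were lower in the metastases (-2.27 against -0.90), where 42.2% of all probes were. That count of the list ran from 3 to 11 across scalings, where 145 to 386 of all probes were called lower. In the metastases against the primary tumors, 15 of all 583 probes were called lower. Of the 11 on the list 4 were, with a median of -1.18 for the list against 0 for all probes. These were miR-199a-3p (log2 fold change -1.44, limma adjusted p = 0.0071), miR-199a-5p (-1.39, 0.00537), miR-22 (-1.26, 0.0432) and miR-10b (-3.53, 0.00105). With the 4 mRNA controls as scale miR-10b alone of these was called, although miR-199a-3p stood at -1.73 (limma adjusted p = 0.111). In the main fit the other 7 of the list were not called and ran from -1.34 (miR-152) to 0.74 (miR-195), a range that holds both members. miR-10b arises in the Hoxd cluster. The miR-199a arms arise within Dnm genes and are known in fibroblasts and other mesenchymal cells.

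The separation of the members from miR-199a can be seen lane by lane. miR-199a-3p measured 774, 361, 137 and 399 in metastasis replicates 1 to 4, and between 633 and 2026 in the primary tumors. Its metastases thus reached far below the primary range, which those of miR-143 did not. Those of miR-145 did reach below its own primary range, at 585 and 623 where the lowest primary value was 673. Within lanes, where scaling has no part, the log2 ratio of miR-143 to miR-199a-3p was -1.49 in metastases and -3.00 in primary tumors, 2.86-fold apart. The ratio of miR-145 to miR-199a-3p was 2.15-fold apart in the same direction. In each case all 4 metastases lay above the median of the 12 primary samples and 2 lay above all of them. Set against the endothelial miR-126-3p, the ratio in metastases was 0.977-fold that in primary tumors for miR-143 and 0.735-fold for miR-145, with 1 of the 4 metastases above the primary median in each case. miR-199a was picked for its fall in this comparison, so these ratios are a description. Over the same samples, miR-126-3p itself had a log2 fold change of 0.11 and miR-126-5p of 0.042, neither of which passed. Of the 7 blood and immune miRNAs, 2 were called higher in the metastases, where 3 of all 583 probes were.

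**Figure D4:**
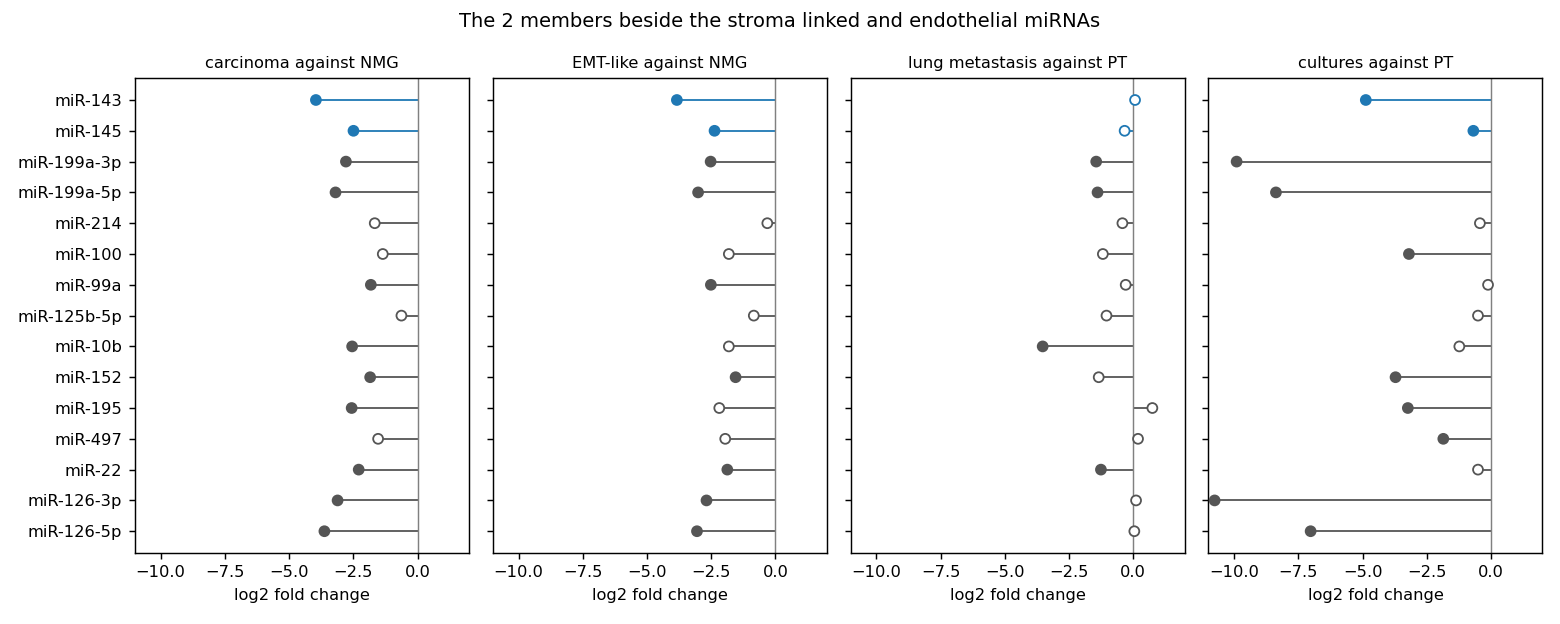
Log2 fold change (limma) of the 2 members (blue), the 11 stroma-linked miRNAs and the endothelial pair (grey) in 4 comparisons. Filled points passed an adjusted p of 0.05. In metastases against PT neither member passed, and both miR-199a arms, miR-10b and miR-22 were called lower. The other 7 of the stroma-linked list did not pass, from -1.34 (miR-152) to 0.74 (miR-195), a range that holds both members. Bars beside cultures for probes at 0 in culture depend on the pseudocount.

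The cultures hold the tumor line without host tissue. miR-143 was above the detection limit in 1 of the 4 lanes, at 99.4 in monolayer replicate 1, the lane that stood apart. Monolayer replicate 2 and 3D-sphere replicate 2 were at 0 and 3D-sphere replicate 1 at 1.74. miR-145 was above the limit in all 4, at 1272 and 404 in monolayer and 425 and 493 in 3D-spheres. In culture miR-145 was thus measured in every lane and miR-143 in 1. miR-145 read higher than miR-143 in the tumors as well, so this difference in detection does not by itself show a changed ratio. Both endothelial miRNAs, miR-126-3p and miR-126-5p, were at 0 in all 4 culture lanes. Of the 11 stroma-linked miRNAs, 3 were at 0 in all 4 (miR-199a-3p, miR-199a-5p and miR-195) and 3 were above the limit in all 4, at 734 to 3715 (miR-22), 1851 to 6829 (miR-125b-5p) and 224 to 1252 (miR-99a). Of the 7 blood and immune miRNAs, 2 were at 0 in all 4 lanes and miR-142-5p was above the limit in all 4, at 69.9 to 88.8.

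miR-143 was lower in the cultures than in the primary tumors (limma adjusted p = 3.69e-06). Its fitted fold change depends on values at 0. With the 3D-spheres set to their detection limit, the primary tumors had at least 3.79-fold more miR-143 than the 3D-spheres. That bound does not cover the monolayer, whose replicate 1, at 99.4, lay within the primary range of 68.8 to 244. miR-145 was 1.61-fold lower in cultures (log2 fold change -0.69, SE 0.25, limma adjusted p = 0.0405), in a comparison that called 22.0% of probes lower. That call does not hold across scalings. By the 100 most abundant miRNAs miR-145 was higher in cultures (1.47, adjusted p = 1.44e-05), by the miRNA total it was 0.38 (limma adjusted p = 0.152), while the median of all probes moved from -0.083 to 0.25 and 0. With the compared groups alone it was -0.69 (0.0713), and without monolayer replicate 2 it was -0.28 (0.481). Of the stroma-linked list, 6 of 11 were lower in cultures than in primary tumors. By the 100 most abundant miRNAs 4 were lower and 4 higher, where 65 of all probes were called lower and 215 higher.

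3D-spheres were compared with monolayer. The log2 fold change of miR-143 was -2.60 (limma adjusted p = 0.284) and that of miR-145 was -0.65 (adjusted p = 0.626), and 4.63% of probes were called. Both rest on which monolayer lane is kept. Without monolayer replicate 1, the lane that stood apart, they were 0.73 (adjusted p = 0.894) and 0.18 (limma adjusted p = 1). Without monolayer replicate 2 they were -5.92 (1.39e-06) and -1.47 (limma adjusted p = 0.0289). In both cases 1 monolayer lane is left, and its p assumes that it varies like the other groups.

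In the mouse assembly GRCm38.p6, RefSeq places Mir143 at chr18:61649196-61649258 and Mir145a, the gene of the older name mmu-mir-145, at chr18:61647825-61647894, with 1301 bases between them. Both lie within the long non-coding RNA gene Carmn at chr18:61645878-61665538. RefSeq also places Mir145b at chr18:69022199-69022273, 7372940 bases from Mir143 and outside Carmn. Whether the panel's miR-145 probe tells the product of Mir145a from that of Mir145b is not known here. Because Mir143 and Mir145a lie in 1 gene, the ratio of miR-145 to miR-143 within each lane was followed across tissues. Probes can bind with different strength, so its size is not a ratio of molecules and its change between groups is what can be read. On the log2 scale it was 1.82 and 1.15 in NMG and 1.73 and 1.27 in normal lung. It was 2.95 ± 0.33 in carcinoma areas (SD, n = 5, from 2.56 to 3.48), 2.95 ± 0.53 in EMT-like areas (n = 7, from 2.32 to 3.96) and 2.54 ± 0.32 in lung metastases (n = 4, from 2.11 to 2.83). All 16 tumor samples lay above all 4 normal samples. In culture it was 3.66 in monolayer replicate 1, and in the other 3 lanes, with miR-143 set to its detection limit, at least 3.48, 3.58 and 4.05. The value of 3.66 and the bounds of 3.48 and 3.58 lie within the range of the EMT-like areas, and the bound of 4.05 lies above it.

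The mean over tumor samples exceeded that over normal samples by 1.36, a factor of 2.56 (exact permutation p = 0.000206, the smallest that 4845 arrangements can give, adjusted p = 0.000619 over 3 such tests of the ratio). Samples of 1 animal are not independent, so 1 mean per animal label was also compared. The 8 tumor labels lay between 2.45 and 3.96 and the 2 normal animals at 1.21 and 1.78 (difference 1.44, 2.71-fold, exact permutation p = 0.0222, the smallest that 45 arrangements can give). Pooling tumors against normal tissues was chosen after the values, which do not overlap, were seen. Both p-values stand at their smallest through that choice, so they describe the separation and give no support beyond it. How many other pairs of probes separate in the same way was not counted. The ratio did not separate carcinoma from EMT-like areas (difference -0.0061, exact permutation p = 0.986, n = 5 and 7). Metastases had a lower mean than primary tumors by 0.41, which did not pass (exact permutation p = 0.103, adjusted p = 0.155, n = 4 and 12).

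**Figure D5:**
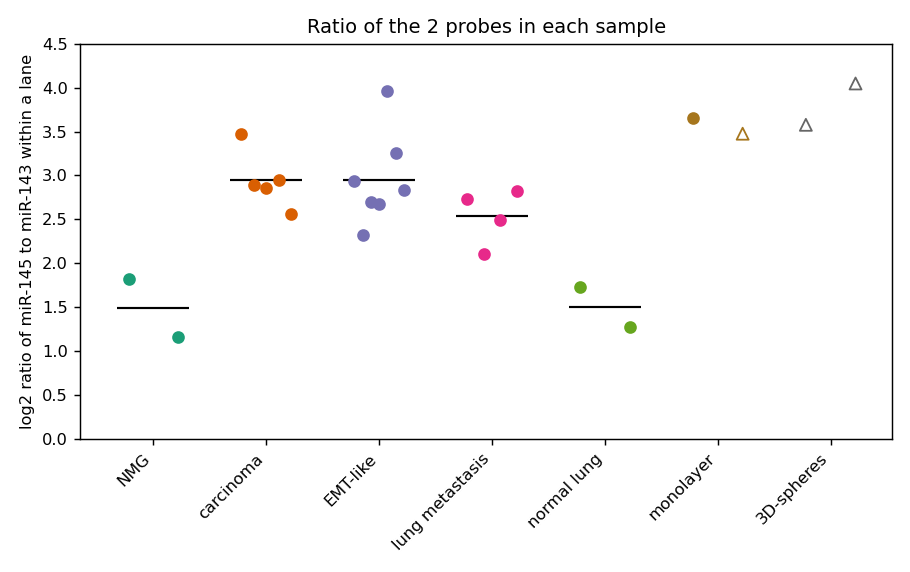
Log2 ratio of miR-145 to miR-143 within each lane, from unscaled values, by group. Lines are means, and open triangles are lower bounds in lanes where miR-143 was not above its detection limit. The 4 normal samples lie between 1.15 and 1.82 and the 16 tumor samples between 2.11 and 3.96.

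The EMT-like areas, from 7 animal labels, were the single group large enough to ask whether the members varied together. The test did not pass, with r = 0.266 (exact permutation p = 0.561) and rho = 0.143 (exact permutation p = 0.783). Without replicates 2 and 5, farthest from the median of miR-143, r was 0.703 (exact permutation p = 0.175, n = 5). The value rests on the scaling. Scaled by the 100 most abundant miRNAs it was -0.229, and by the total -0.565. Scaled by the 4 mRNA controls it was 0.949 (exact permutation p = 0.00119, n = 7). Each lane has 1 scale, which enters both members alike.

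Over all 24 samples the members had r = 0.833 with each other, which is a description, since the samples share groups, animals and lane scales. Among 195 probes, miR-145 stood at rank 36 in likeness to miR-143, and miR-143 at rank 16 in likeness to miR-145. Nearest to miR-143 were miR-15a (r = 0.974), miR-16 (0.970), miR-130a (0.950), miR-450a-5p (0.944) and miR-26b (0.933). Mir15a and Mir16-1, 1 of the 2 genes that give miR-16, lie 54 bases apart on chromosome 14, and miR-15a and miR-16 share the seed shown above. miR-16 averaged 14481 in normal lung, 6388 in NMG, 2085 to 2211 in the tumor groups, 513 in monolayer and 84.0 in 3D-spheres. It thus shared with miR-143 the order lung, gland, tumor, culture. Nearest to miR-145 were miR-29c (r = 0.929), miR-365 (0.923), miR-188-5p (0.918), miR-322 (0.915) and miR-22 (0.903). miR-29c averaged 4257 in normal lung, 1446 in NMG and 97.4 to 121 in the tumor groups. miR-322, which carries the same seed as miR-15a and miR-16, averaged 1031 in normal lung, 1104 in NMG and 79.2 to 126 in the tumor groups. Of the 10 nearest miRNAs, miR-22 belongs to the stroma-linked list and miR-365 to the adipose-linked list. The share of each list among the 195 ranked probes was not counted, so few list members here need not be a shortage.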

How the data were processed

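Mouse miRNAs were counted without amplification by the nCounter assay (NanoString), in which each miRNA is read by a barcoded probe. The deposited values are whole numbers made by the authors, per the labels with Partek among the tools: the mean of the 6 negative controls of a lane has been subtracted from each count, as a check on the negative controls showed, so values reach -20 and lanes are not scaled. The planned test for counts was therefore replaced by the planned fallback. Values were floored at 0, scaled by the trimmed mean of M values (30% of log ratios and 5% of levels trimmed), and log2(value + 1) was tested with limma 3.58.1 (R 4.3.3; lmFit, eBayes with trend) in 1 fit of all 24 samples. Fold changes are on that scale. Adjusted p-values are Benjamini-Hochberg over 583 probes above 0 in at least 1 sample, called at 0.05. A value counted as above the detection limit when it passed the lane's negative controls by 2 SD. Ratios of the 2 probes used unscaled values. Permutation tests are exact and two-sided. The script was tested on simulated data.

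The sum of mouse miRNA values was 26420 to 2335740 per lane, and detection limits were 4 to 21.4. Precision rests on the number of samples. Samples were grouped by their titles. Animals were read from the labels and used as a block in an alternative. Named beside the members are the 5 miRNAs of highest Pearson correlation with each, among 195 probes above the limit in at least 12 lanes, and 6 marker lists. The members and the lists were chosen with earlier results of these data known. Alternatives changed the pseudocount (10), the filter, the scaling (none, 100 most abundant miRNAs, miRNA total, 4 mRNA controls), the background, the samples fitted and each sample in turn.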

Additional observations from a re-analysis of the deposited data

How the results depend on the processing

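The calls of miR-145 against NMG and normal lung, and of miR-143 against normal lung and in cultures against PT, held in every alternative run. miR-143 in EMT-like areas against NMG lost its call when scaled by the 100 most abundant miRNAs (-2.97, limma adjusted p = 0.0765). Leaving out 1 sample, miR-143 ran from -4.37 to -3.55 in carcinoma areas and from -4.25 to -3.42 in EMT-like areas against NMG, with the calls lost without NMG replicate 2. Carcinoma against EMT-like turned sign with the 4 mRNA controls, to 0.024 for miR-143 and 0.025 for miR-145, and leaving out 1 sample gave -0.40 to 0.055 for miR-143. Metastasis against PT for miR-143 turned to -0.49 without scaling, -0.012 by the 100 most abundant miRNAs and -0.22 by the mRNA controls, with -0.00019 to 0.16 when 1 sample was left out. None passed. Normal lung against NMG turned to -0.081 (miR-143) and -0.070 (miR-145) by the miRNA total, and miR-145 passed by the mRNA controls (2.05, limma adjusted p = 0.0293). 3D-spheres against monolayer gave 0.048 for miR-145 by the mRNA controls, and -5.92 to 0.73 (miR-143) and -1.47 to 0.18 (miR-145) when 1 sample was left out. Cultures against PT for miR-145 turned to 1.47 by the 100 most abundant miRNAs and 0.38 by the miRNA total, was -0.69 (limma adjusted p = 0.0713) with the compared groups alone, and ran from -1.10 to -0.28 when 1 sample was left out, with 9 of 16 losing the call. The ratio of carcinoma to EMT-like areas turned to 0.13 with a higher background and ran from -0.14 to 0.16 when 1 sample was left out. The tumor against normal ratio, a split chosen after the values were seen, kept its direction in all 23 alternatives (1.24 to 1.54). The correlation in EMT-like areas was -0.229, -0.565 and 0.949 by the 100 most abundant miRNAs, the miRNA total and the mRNA controls. Causes were not tested.

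Counts of called probes moved by over 1.5 times in all 8 comparisons. They ran from 102 to 318 (171 as reported) in carcinoma against NMG, 98 to 317 (144) in EMT-like against NMG, 0 to 19 (1) between these areas and 10 to 191 (18) in metastasis against PT. They ran from 151 to 389 (287) in metastasis against normal lung, 30 to 160 (68) in normal lung against NMG, 0 to 49 (27) in 3D-spheres against monolayer and 134 to 375 (177) in cultures against PT. The share of calls that were lower moved with the scaling: from 66.2% to 98.3% (81.3% as reported) in carcinoma and 56.2% to 96.5% (81.9%) in EMT-like areas against NMG, 71.4% to 97.6% (83.3%) in metastasis against PT, 61.2% to 99.2% (85.7%) against normal lung, 3.13% to 41.8% (10.3%) in normal lung against NMG, 0% to 68.8% (37.0%) in 3D-spheres against monolayer and 23.2% to 97.5% (72.3%) in cultures against PT.

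With the animal as a replicate block, estimated correlation -0.003, no call of the members changed, and miR-143 in carcinoma areas against NMG was -3.96 (limma adjusted p = 0.00383). Deviations of tumor samples of 1 animal correlated from -0.544 to 0.720 (median 0.118, 5 of 10 pairs below 0, 56 probes).

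NMG, normal lung and each culture hold 2 samples, nothing says that the cultures were separate beyond their titles, and values of miR-143 in 3 culture lanes lie within the noise of the negative controls.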
